A study of Homo sapiens with 9 samples.

Results

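The abundant long noncoding RNAs of a human stem cell line on its way to serotonin neurons are described here. They are the genes that the deposited table types as lncRNA or lincRNA and not as protein coding, that lie on an autosome, and that reached 5 FPKM (fragments per kilobase of transcript, scaled to the size of the library) in all 3 libraries of at least 1 of 3 days. H19 and MEG3 were left out by name. The rule kept 177 genes of the 34961 in the table, out of 8679 autosomal genes of the lncRNA type. Because the members were chosen by their FPKM, their high days are a description, and a test is given only between days on which the 3 libraries met 5 FPKM on both days or on neither, where the choice did not fix the direction of a difference.

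All cells came from WA09, also called H9, an embryonic stem cell line that carries EGFP knocked in at TPH2, the gene of the neuronal enzyme that makes serotonin. The Day0 group is the undifferentiated stem cells, the Day21 group is labelled neural progenitor cells, and the Day42 group is labelled TPH2+ serotonin neurons; the labels give every group, Day0 included, the same knock-in genotype and the same induced serotonin neuron differentiation. There were 3 libraries per day, titled as biological replicates and made from total RNA with a low-input kit. Whether the 3 came from separate differentiations, and whether and how Day42 cells were sorted, the labels do not say. Each p-value therefore weighs a difference against library-to-library variation that could be technical. The knock-in line is the only genotype, so nothing here compares it with unedited cells.

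Long noncoding RNAs are transcripts with no known protein product. Some act in the nucleus as the RNA itself, such as MALAT1 of the nuclear speckles, where splicing factors gather. Others are mainly hosts: their introns or exons are cut into microRNAs, which silence target messages through a short seed sequence, or into small nucleolar RNAs (snoRNAs), which guide the chemical marking of ribosomal RNA.

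The libraries held 58526466 to 69658328 counts each. Day42 libraries held counts for 10797 to 17101 genes, against 22198 to 24741 in the Day0 and Day21 libraries, and replicate 3 of Day42 had the fewest. Of the 177 members, 172 to 175 had an FPKM above 0 in the Day0 libraries, 159 to 162 in the Day21 libraries and 92 to 132 in the Day42 libraries. The stem cell markers POU5F1, NANOG, LIN28A and DNMT3B were all at or above 1 FPKM in every Day0 library. Of 5 serotonin neuron markers, 4 were at or above 1 FPKM in every Day42 library; SLC18A2 fell short with 0.201 FPKM in replicate 3. Of 6 progenitor markers, 4 reached that level in every Day21 library, while PAX6 and SOX1 stayed under 0.5 FPKM there. On Day21 all 4 mesenchymal markers, COL1A1, COL3A1, LUM and DCN, were also at or above 1 FPKM in every library, and the list summed to 0.565 to 0.791 FPKM on Day0, 104 to 108 FPKM on Day21 and 17.9 to 52.0 FPKM on Day42; their part in the results was not tested. Glial markers summed to at most 2.51 FPKM and endothelial markers to at most 0.0998 FPKM in any library, and GFAP was at 0 in all 3 Day42 libraries.

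Of the 177 members, 43 met 5 FPKM on Day0 alone, 50 on Day21 alone and 30 on Day42 alone. A further 26 met it on Day0 and Day21, 13 on Day21 and Day42, 1 (SNHG15) on Day0 and Day42, and 14 on all 3 days. In all, Day0 had 84 members that met it, Day21 had 103 and Day42 had 58. The 43 of Day0 alone had median levels of 12.3 FPKM on Day0, 0.143 FPKM on Day21 and 0 FPKM on Day42. The 50 of Day21 alone had medians of 2.97, 8.93 and 1.11 FPKM over the 3 days in turn, and the 30 of Day42 alone had medians of 1.35, 2.23 and 16.6 FPKM. At the edge of the rule, WASL-DT, AC026979 and AL162411 lay just inside, with 5.05, 5.10 and 5.14 FPKM in the lowest library of their best day, and AL117332, AC036176 and LINC01918 lay just outside, at 4.96 FPKM each. In bulk RNA, fewer cells that make a transcript and less of it per cell cannot be told apart.

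**Figure D1:**
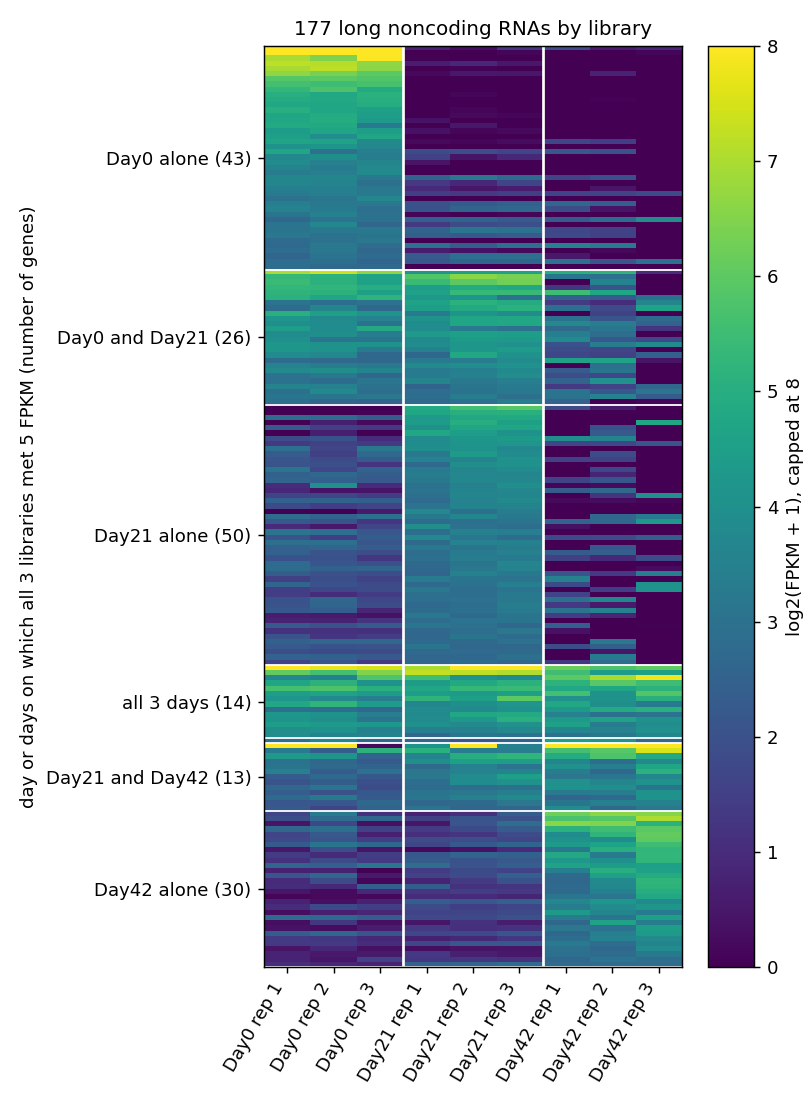
Level of each of the 177 members as log2(FPKM + 1), one row per gene and one column per library, with rows grouped by the days on which all 3 libraries met 5 FPKM (the unlabelled row is SNHG15, met on Day0 and Day42). Many but not all of the 43 genes of Day0 alone are near 0 in most later libraries, and replicate 3 of Day42 has the most rows at 0.

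The sequences of the microRNAs inside members are shown first because they are the known products of the most abundant stem cell member, MIR302CHG, and of a member seen on Day21 alone, AL359091. Of the 177 members, 6 span a microRNA hairpin on their own strand. MIR302CHG (chr4:112646476-112650051, minus strand, GRCh38) holds 5 hairpins, and the mature sequences of RefSeq (GRCh38.p14) are given here 5′ to 3′, with the seed, bases 2 to 8, in capitals.
hsa-miR-302a-3p: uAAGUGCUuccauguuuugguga
hsa-miR-302b-3p: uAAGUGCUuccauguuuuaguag
hsa-miR-302c-3p: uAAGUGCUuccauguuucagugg
hsa-miR-302d-3p: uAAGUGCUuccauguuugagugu
hsa-miR-367-3p: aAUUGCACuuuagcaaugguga
hsa-miR-219a-5p: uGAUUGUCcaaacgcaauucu
hsa-miR-219a-2-3p: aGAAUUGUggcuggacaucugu
The 4 miR-302 3p forms carry the same seed, miR-367-3p carries another, and both arms of miR-219a-2 lie in AL359091 with seeds of their own. The other spans were miR-4435 in CYTOR, miR-4449 in DANCR, miR-3659 in MIR3659HG and miR-4999 in RAB11B-AS1. The libraries measure the host transcripts and not the mature microRNAs.

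MIR302CHG had 3560.3, 2978.5 and 1611 FPKM in the Day0 libraries, 0.727, 0.217 and 1.40 FPKM in the Day21 libraries, and 2.72, 0.537 and 0.903 FPKM in the Day42 libraries. No later library came near the lowest Day0 library. The miR-302 and miR-367 family is known for its role in keeping human stem cells pluripotent and in reprogramming. Of the exonic length of MIR302CHG, 40.6% lies inside exons of LARP7 on the opposite strand. LARP7 itself averaged 14.4 FPKM on Day21 and 14.7 FPKM on Day0. AL359091 (ENSG00000207955, chr9:128392007-128393510, minus strand, a single exon) had 0, 0 and 0.0498 FPKM on Day0, 25.4, 32.1 and 32.9 FPKM on Day21, and 0, 0.0370 and 0 FPKM on Day42. It was thus seen on Day21 in all 3 libraries and was at or next to 0 in the other 6. miR-219 is known in the nervous system chiefly for its part in oligodendrocyte maturation. The 4 glial markers summed to 0.359 to 0.494 FPKM on Day0, 0.723 to 0.947 FPKM on Day21 and 0 to 2.51 FPKM on Day42, and their part in this level was not tested.

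The RefSeq promoter of MIR302CHG is shown because, of the 81 promoter windows of 300 bases (250 before a start and 50 after it) that matched 67 members, it was the only one with the octamer ATGCAAAT on either strand. POU factors such as OCT4, the product of POU5F1, bind that element. It lies at chr4:112650002-112650301 (GRCh38.p14, minus strand), with the octamer in capitals.
MIR302CHG promoter: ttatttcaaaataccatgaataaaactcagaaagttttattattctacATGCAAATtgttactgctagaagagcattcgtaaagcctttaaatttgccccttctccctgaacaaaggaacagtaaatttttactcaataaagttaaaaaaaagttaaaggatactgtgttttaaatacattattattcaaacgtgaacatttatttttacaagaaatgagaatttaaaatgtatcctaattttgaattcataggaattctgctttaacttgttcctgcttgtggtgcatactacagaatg
The same octamer occurred in 1.77% of all 35116 RefSeq promoter windows, so 1 in 81 (1.23%) is near the general share. The MIR302CHG window is 28.0% G and C, while the member windows had a median of 65.0% and all windows a median of 58.7%. Windows of members of Day0 alone had a median of 55.3% G and C, those of Day21 alone 67.7% and those of Day42 alone 64.2%.

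Members of Day0 alone were mostly near 0 on the later days. ESRG, a transcript named for its expression in embryonic stem cells, had 126, 86.3 and 245 FPKM on Day0, 0.0292, 0 and 0.0190 FPKM on Day21, and 0 in every Day42 library. LINC00678 had 123, 146 and 97.6 FPKM on Day0, and 1 of the 6 later libraries held any, at 0.0654 FPKM. HPAT5, a human pluripotency-associated transcript, had 148, 141 and 102 FPKM on Day0 and 0.511, 0.860 and 0.425 FPKM on Day21, and was at 0 on Day42. The Day0 libraries of these 3 lay above all later libraries; they were chosen for high Day0 levels, so this is a description. LNCPRESS1, known in human stem cells as a p53-regulated guard of pluripotency, averaged 39.8 FPKM on Day0, and LNCPRESS2 27.2 FPKM; both were at 0 in all 6 later libraries, as were LINC02570, which averaged 47.4 FPKM on Day0, and AL591030 (ENSG00000280511), which averaged 58.8 FPKM. AC009446 (ENSG00000254277) was the second most abundant member of Day0 alone at 298 ± 32.3 FPKM (SD, n = 3). FOXD3-AS1, a neighbour of the stem cell and neural crest factor FOXD3, had 100.7, 81.0 and 62.5 FPKM on Day0 and stayed under 1 FPKM later. Of 18 stem cell lncRNAs on a list that were in the table, 9 were members, 8 of them on Day0 alone; the ninth, CYTOR, met the threshold on Day42 alone, with 8.96, 6.28 and 11.3 FPKM there.

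Among the Day0 members a further property that the rule did not use was shared sequence. Transcripts were compared by the 31-base stretches they hold in GENCODE 29. Of 13861 pairs of members with sequence, 39 pairs shared 20 or more such stretches, and 36 of the 39 lay among the 43 members of Day0 alone, where 17 members took part. The pairs were mostly far apart in the genome: 32 of the 36 joined different chromosomes, and 1 pair, PPP1R14B-AS1 and AP001453, overlapped in place. ESRG took part in 11 of the 36. The other 3 pairs joined 2 genes named FP236383 and 1 named FP671120, near-identical copies on chromosome 21. Among the 44 members of Day21 alone and the 30 of Day42 alone with sequence, no such pair was found. Reads from shared stretches may be counted for the wrong copy, and the sources used here do not say how the authors' counting treated them; 18.05% of the 31-base stretches of ESRG and 11.3% of those of LINC00678 also occur in other genes.

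**Figure D2:**
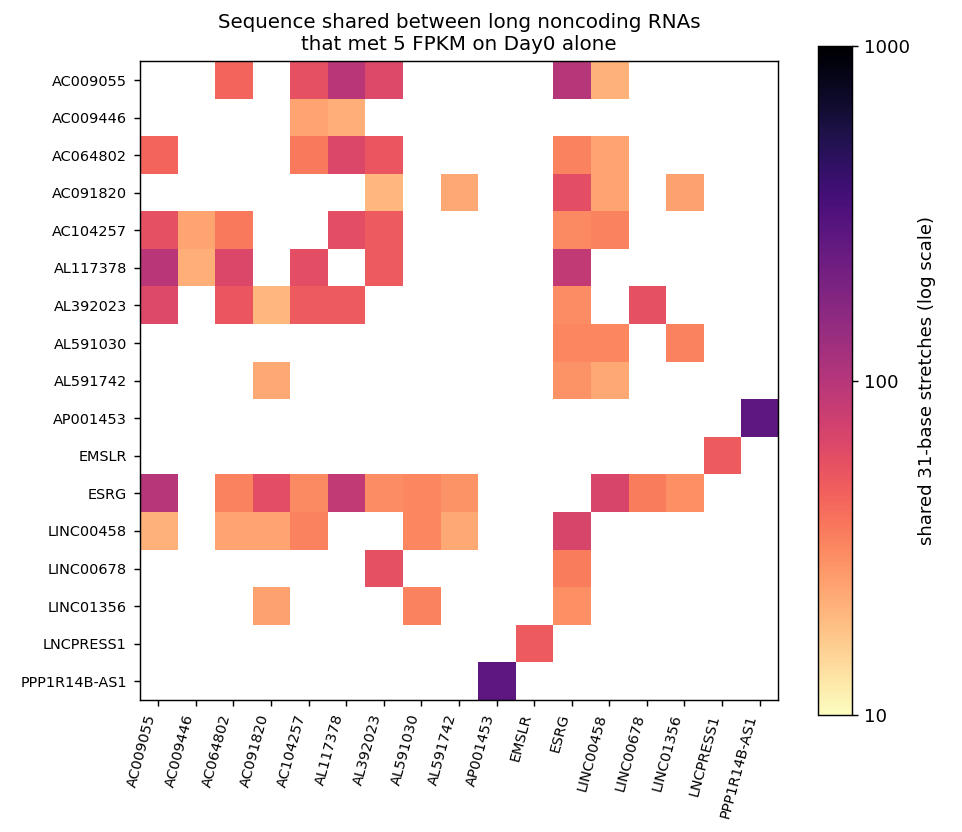
Number of 31-base stretches shared by each pair of members of Day0 alone (colour, log scale; white marks pairs with under 20), for the 17 members in at least 1 pair. ESRG joins 11 of the 36 pairs, and the darkest square is the overlapping pair PPP1R14B-AS1 and AP001453, with 272 shared stretches.

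MALAT1 (ENSG00000251562, chr11:65497688-65506469, plus strand, GRCh38) was the most abundant member on Day42, and its level differed widely between the libraries of Day0 and between those of Day21. It had 518, 434 and 0.159 FPKM in the Day0 libraries, 15.8, 2258 and 10.3 FPKM in the Day21 libraries, and 3882.5, 6302 and 5129.8 FPKM in the Day42 libraries. The 3 Day42 libraries lay within 1.62-fold of each other and above all 6 others. On Day0, replicate 3 held 114 counts where replicates 1 and 2 held 324293 and 308286. In FPKM this was a span of 3264-fold, the widest finite span of all 3997 genes with a mean of at least 5 FPKM on that day. On Day21, replicate 2 held 1647380 counts and replicates 1 and 3 held 11867 and 7280, a span of 220-fold in FPKM. MALAT1 alone took 0.000175 to 0.554% of all counts of the Day0 libraries, 0.0115 to 2.48% of those of Day21 and 4.02 to 6.55% of those of Day42. Between Day42 and Day21 the log2 fold change was 1.98 with a standard error of 2.25 (adjusted p = 0.607, edgeR quasi-likelihood test), so the difference was not called, although every Day42 library was higher. The test estimates spread over all 9 libraries, so the wide span of Day0 enters it as well as that of Day21. Without replicate 2 of Day21 the log2 fold change was 8.03 (adjusted p = 0.0857, edgeR), and over 16 alternatives it lay between 1.39 and 8.03, with adjusted p of 0.0857 to 0.799. Among the 103 members with a mean of at least 5 FPKM on Day0 the median span between libraries was 1.55-fold and 2 spanned 10-fold or more. Without MALAT1, the members took 0.677 to 0.886% of the counts on Day0, 0.385 to 0.453% on Day21 and 0.335 to 0.419% on Day42.

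**Figure D3:**
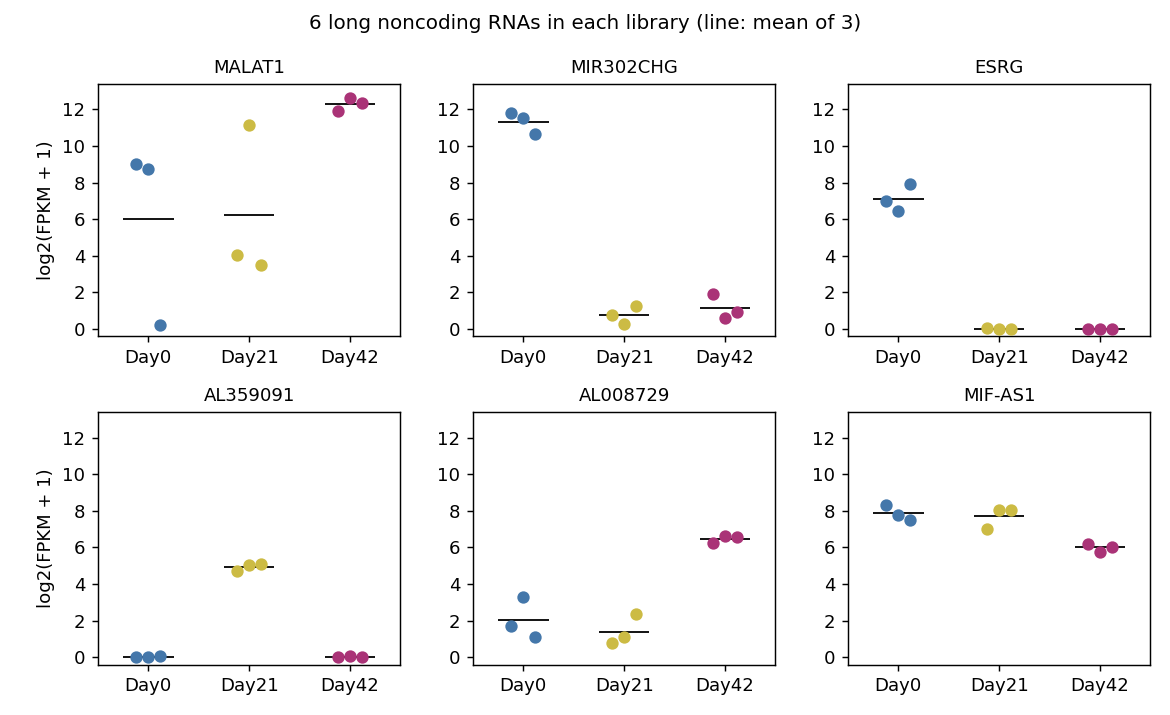
log2(FPKM + 1) of 6 members in each library of Day0, Day21 and Day42; points are libraries and lines are means of 3. MALAT1 is spread from 0.159 to 518 FPKM on Day0 and from 10.3 to 2258 FPKM on Day21, while its Day42 libraries lie together; MIR302CHG and ESRG are high on Day0 only, AL359091 on Day21 only and AL008729 on Day42 only.

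The proteins around these RNAs were read from lists that the rule did not use. Of 15 speckle and SR splicing proteins, the setting of MALAT1, none passed between Day21 and Day0, 4 fell and none rose between Day42 and Day21, and 6 fell and none rose between Day42 and Day0 (edgeR, adjusted p under 0.05 and at least 2-fold). Over all genes tested, 23.4% passed as lower between Day42 and Day0 and 19.7% between Day42 and Day21. The list's median log2 fold change between Day42 and Day0 was -0.84, against -0.57 over all 20156 genes tested. SON, a core speckle protein, averaged 35.6 FPKM on Day42 and 69.4 FPKM on Day0, a log2 fold change of -1.70 ± 0.23 (SE, adjusted p = 0.00149, edgeR). U2AF1, which reads the 3′ splice site, fell by 2.25 on the log2 scale between these days (adjusted p = 0.00129, edgeR). SRRM1 fell by 1.89 and the SR protein SRSF7 by 1.59 (adjusted p = 0.000513 and 0.00364, edgeR). These fold changes come from TMM-scaled counts, with scaling factors of 1.21 to 1.39 on Day42 and 0.763 to 0.942 on Day0. The FPKM of SON differed by less than its fold change, so the size of these falls depends on the scaling, and no alternative is given for the proteins. Of 11 PRC2 subunits, 1 rose and 1 fell between Day42 and Day0, and of 12 proteins of nonsense-mediated decay, 2 fell and none rose. No protein of these lists passed between Day21 and Day0.

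Members counted as snoRNA hosts came to 14. Of the members found in GENCODE 29, 13 of 167 (7.78%) span a RefSeq snoRNA on either strand, against 1.23% of 7582 other autosomal lncRNA genes of the table. SNHG21, a host by name with no RefSeq snoRNA in its span, makes 14. Strand was not used, so a snoRNA inside a span may belong to another gene. AC016876 has 87.3% of its exonic length inside EIF4A1 exons on the same strand, so its 3 snoRNAs cannot be assigned to either gene. GAS5, the growth arrest transcript that spans 11 snoRNAs, had 26.7, 36.7 and 20.01 FPKM on Day0, 11.8, 15.0 and 17.2 FPKM on Day21, and 26.5, 14.9 and 8.74 FPKM on Day42. SNHG6 had 48.6, 53.4 and 31.4 FPKM on Day0, 25.6, 39.4 and 41.8 FPKM on Day21, and 27.1, 25.9 and 34.1 FPKM on Day42. SNHG30 had 16.1 to 34.5 FPKM on Day0, 20.2 to 33.2 FPKM on Day21, and 35.3, 61.4 and 44.3 FPKM on Day42. The Day42 libraries of SNHG30 lay above the others in FPKM, while those of GAS5 and SNHG6 overlapped the earlier days. On scaled counts, however, SNHG30 hardly differed on Day42. Its log2 fold change was 0.15 against Day0 and 0.11 against Day21 (adjusted p = 0.84 and 0.898, edgeR). SNHG32, typed as protein coding in GENCODE 29 and as lncRNA by RefSeq, had 48.1, 16.3 and 56.5 FPKM on Day42, with replicate 2 below every library of the earlier days. DANCR, known for holding human epidermal progenitors undifferentiated, was met on Day0 alone, with 25.4, 6.97 and 9.83 FPKM there and 2.22 to 2.71 FPKM on Day21.

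Between Day42 and Day0, 8 of the 14 hosts could be tested, and 3 passed as lower, where 23.4% of all genes tested did. These were GAS5, SNHG6 and SNHG8, with log2 fold changes of -1.46 ± 0.45, -1.33 ± 0.40 and -1.11 ± 0.36 (SE) and adjusted p of 0.0385, 0.0329 and 0.0443 (edgeR); SNHG8 was named after its values were seen. The calls were lost in 12, 11 and 13 of 16 alternatives in the order given, with adjusted p of up to 0.145, 0.126 and 0.281. No host passed as higher in any comparison, none of 11 passed between Day21 and Day0, and none of 9 between Day42 and Day21. The FPKM of all 3 overlapped between Day42 and Day0; the fold changes come from TMM-scaled counts, with scaling factors of 1.21 to 1.39 on Day42 and 0.763 to 0.942 on Day0. With limma on log2(FPKM + 1) the 3 log2 differences were -0.79, -0.57 and -0.39, with adjusted p of 0.134, 0.125 and 0.281. Of 11 snoRNP proteins, which bind the released snoRNAs, 4 fell between Day42 and Day0, against 23.4% of all genes tested, and none rose. They were FBL, the methyltransferase fibrillarin, GAR1, NHP2 and NOP10. The median log2 fold change of the list was -1.10, against -0.57 over all genes tested. NHP2 averaged 117 FPKM on Day42 and 563 FPKM on Day0 (log2 fold change -2.97 ± 0.22 SE, adjusted p = 0.000125, edgeR). Fibrillarin's partners NOP56 and NOP58 had log2 fold changes of -0.15 and -0.36, short of the test.

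**Figure D4:**
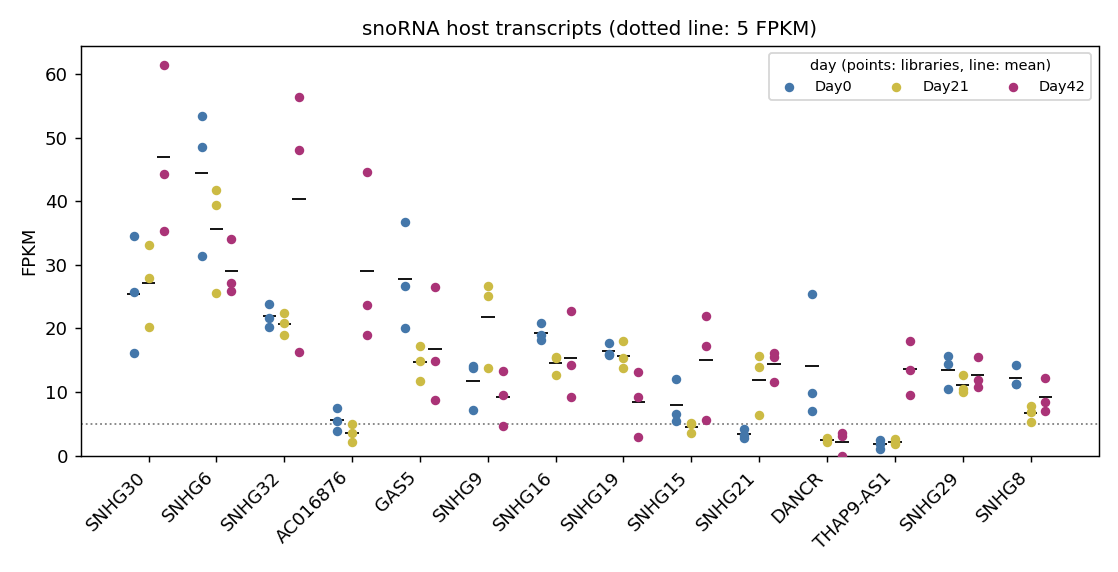
FPKM of the 14 members counted as snoRNA hosts in each library of Day0, Day21 and Day42 (points are libraries, lines are means of 3, dotted line at 5 FPKM), ordered by the mean on the highest day. Day42 libraries of SNHG16 and SNHG29 overlap those of both earlier days, while all Day42 libraries of AC016876 and THAP9-AS1 lie above the others.

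Between Day21 and Day0, 70 members could be tested. GIHCG passed as higher and none as lower (edgeR, adjusted p under 0.05 and at least 2-fold); over all genes tested, 1.32% passed as higher and 1.18% as lower, so these counts are near the background. Among protein-coding genes under the same FPKM condition, 2.91% passed as higher and 1.94% as lower. All 3 Day21 libraries lay above all 3 Day0 libraries for 21 of the 70 and below them for 7, against 25% and 20.7% of all genes tested. Without adjustment, 13 of the 70 had p under 0.05, as did 16.9% of all genes tested. DESeq2 called 6 higher and 2 lower, against 6.89% and 7.75% of all genes it tested, and limma on log2(FPKM + 1) called 3 higher and none lower, against 5.73% and 6.5%. GIHCG had 4.66, 5.12 and 5.97 FPKM on Day21, against 1.07, 0.830 and 0.673 FPKM on Day0, a log2 fold change of 2.53 ± 0.46 (SE, adjusted p = 0.0293, edgeR). Its Day21 libraries lay above all Day0 libraries. Of 16 alternatives 8 ended the call, including the removal of any 1 Day0 or Day21 library, and adjusted p reached 0.201; without replicate 3 of Day42, 6 members passed as higher and 1 as lower. LINC01578, which neighbours CHD2 and is also known as CHASERR, had 13.7, 13.3 and 15.4 FPKM on Day21, against 6.77, 6.45 and 5.33 FPKM on Day0 (log2 fold change 1.13 ± 0.31 SE, adjusted p = 0.0835, edgeR). AP002387 averaged 20.5 FPKM on Day21 and 131 FPKM on Day0, with no overlap of libraries, at a log2 fold change of -2.73 ± 0.98 (SE, adjusted p = 0.188, edgeR). The median log2 fold change of the 70 was 0.13, against 0.03 over all genes tested.

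Members of Day21 alone included some transcripts that lie beside genes of developmental transcription factors. LHX5-AS1, which starts 277 bases from the forebrain factor LHX5 on the other strand, had 28.4, 47.9 and 59.6 FPKM on Day21, 0 in every Day0 library, and 2.64, 0.528 and 0 FPKM on Day42. LHX5 itself averaged 0.296 FPKM on Day21 and 0.00538 FPKM on Day0. SOX21-AS1, beside the progenitor factor SOX21, had 14.4, 7.0 and 6.49 FPKM on Day21, against 0.945, 0.454 and 2.21 FPKM on Day0. MIR3659HG, which starts 520 bases from the neural factor POU3F1, averaged 7.10 FPKM on Day21 and 0.446 FPKM on Day0. TP53TG1, known as a p53 target, averaged 15.8 FPKM on Day21, against 1.68 FPKM on Day0, and the p53-regulated PURPL averaged 8.28 FPKM against 2.499 FPKM. LINC01173 had 20.05, 30.6 and 22.4 FPKM on Day21 and 0, 0 and 25.6 FPKM on Day42, so that replicate 3 of Day42 alone stood at the Day21 level; between Day42 and Day0 its log2 fold change was 4.37 (adjusted p = 0.267, edgeR), and -6.02 without that replicate (adjusted p = 0.0466, edgeR), a fitted value that depends on the prior count since the other Day42 libraries were at 0. Of 34 lncRNAs in the table that stood on a list labelled neural, 3 were members: SOX21-AS1 and PCAT6 on Day21 alone and FOXD3-AS1 on Day0 alone. PCAT6 counts as neural here only by its place on that list. Of the other lists of lncRNAs, members were 12 of 32 snoRNA hosts, 3 of 18 cytoplasmic, 3 of 11 p53 and stress, 1 of 29 microRNA host and 0 of 11 imprinted transcripts.

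Members often lay head to head with a coding gene, a feature the rule did not use. Of 167 members, 62 (37.1%) started within 1000 bases of a coding gene's start on the other strand, against 18.9% of 7582 other autosomal lncRNA genes of the table. Over these 62 pairs the fitted log2 fold changes of member and neighbour between Day21 and Day0 had a Pearson r of 0.814 and a Spearman rho of 0.483, across genes that are not independent and that share the same libraries. Without the 3 pairs farthest from 0, r was 0.592 and rho 0.403. The 2 changes had the same sign in 37 of the 62 pairs. For Day42 against Day21 r was 0.325 over all 62 pairs and 0.464 over the 54 with no gene at 0 on either day. For Day42 against Day0 it was 0.197 and 0.428 over the same numbers of pairs. In each comparison the rule fixed the direction of change of many of these members. Between Day21 and Day0 these included LHX5-AS1, SPINT1-AS1 and AL355353. No correlation is given for pairs outside the members, so r and rho describe these pairs only, and a link between member and neighbour was not tested. The extremes were LHX5-AS1 with LHX5 on the higher side and SPINT1-AS1 with SPINT1, a protease inhibitor of epithelia, on the lower side: SPINT1-AS1 averaged 0.155 FPKM on Day21 and 20.2 FPKM on Day0, and SPINT1 0.0382 FPKM and 9.60 FPKM. LHX5-AS1 and SPINT1-AS1 also overlap exons of these neighbours on the opposite strand. So do many other members of the 62 pairs, among them RFX5-AS1, RAB11B-AS1, AC009005 and AC015982. Whether the counting used strand is not known, so the reads of such pairs may not be separate, and r and rho include these pairs. AL355353 and CD2AP, an adaptor protein gene, were another pair, with 1.06 FPKM on Day21 and 12.3 FPKM on Day0 for the member and 0.130 FPKM and 1.21 FPKM for the neighbour. TYMSOS and the thymidylate synthase gene TYMS also start close together: TYMSOS averaged 0.129 FPKM on Day42 and 5.82 FPKM on Day21, and TYMS 1.33 FPKM and 55.3 FPKM. SNHG9 averaged 21.8 FPKM on Day21 and 11.7 FPKM on Day0, while RPS2, which starts 99 bases away, averaged 311 FPKM and 318 FPKM.

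**Figure D5:**
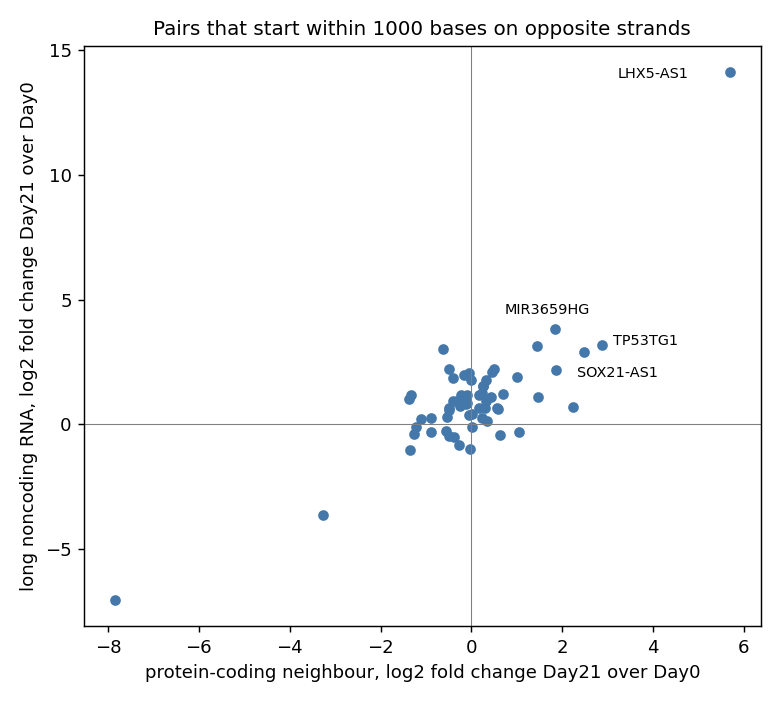
log2 fold change of Day21 over Day0 for 62 members (vertical) and for the coding gene that starts within 1000 bases on the other strand (horizontal); each point is a pair. Most pairs lie within 2 units of 0 on both axes, with LHX5-AS1 at the upper right and SPINT1-AS1 and AL355353 at the lower left; LHX5-AS1 was at 0 on Day0, so its fitted value depends on the prior count.

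Between Day42 and Day21, 70 members could be tested, of which 12 passed as lower and none as higher. Over all genes tested 19.7% passed as lower and 6.52% as higher. Of the 70, 43 met 5 FPKM on neither day and 22 were at or under the limit of a count of 0 on both days, so nothing is read from the share of members called. Some of the 70 passed the count filter only because the fit held Day0, where they were high. With only Day42 and Day21 fitted, 47 could be tested, and 8 passed as lower and none as higher. Among protein-coding genes under the same condition, 25.3% passed as lower and 9.03% as higher. The Day42 libraries lay wholly below the Day21 libraries for 17 of the 70 and wholly above for 7, against 27.3% and 15.8% of all genes tested. Of the 70, 20 had p under 0.05 without adjustment, as did 36.9% of all genes. For higher, limma on log2(FPKM + 1) called 2 and DESeq2 none, against 19.8% and 10.5% of all genes. Of the 12, 4 met 5 FPKM on both days: AC011603, MIF-AS1, U47924 and AC010642, of which U47924 and AC010642, like AP002856, were named after their values were seen. Without replicate 3 of Day42, 1 passed as higher and 17 as lower. AC011603 (ENSG00000258017) had 45.6, 20.6 and 22.4 FPKM on Day42, against 154, 146 and 130 FPKM on Day21, a log2 fold change of -2.92 ± 0.36 (SE, adjusted p = 0.00134, edgeR). MIF-AS1 had 72.3, 53.8 and 64.9 FPKM on Day42, against 128, 264 and 260 FPKM on Day21, a log2 fold change of -2.45 ± 0.42 (SE, adjusted p = 0.00402, edgeR). Neither overlapped between the days. All 4 lie over exons of a coding gene on the opposite strand, and the sources used here do not say whether the counting used strand, so reads of the partners cannot be told apart. AC011603 has 80.2% of its exonic length inside TUBA1B, an alpha-tubulin gene that averaged 558 FPKM on Day42 and 1655 FPKM on Day21, with a log2 fold change of -2.20. MIF-AS1 has 46.5% inside MIF, the macrophage migration inhibitory factor gene, at 1261 FPKM on Day42 and 4430 FPKM on Day21 (log2 fold change -2.48). U47924 and C12orf57 had log2 fold changes of -2.17 and -2.22, whereas AC010642 had -1.57 and its partner ERVK3-1 -0.35.

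The other 8 of the 12 were stem cell members that were low on Day21 and at 0 in all Day42 libraries. CTB-178M22 had 1.504, 2.52 and 2.90 FPKM on Day21, which makes Day42 at least 14.7-fold lower, counting 12 reads per library as the limit that a count of 0 allows. For HPAT5 the Day42 level was at least 5.91-fold lower, and for AP000569 at least 8.70-fold (adjusted p = 0.000863 and 0.00309, edgeR). AL355353 and LINC01356 were at least 3.24-fold and 2.66-fold lower. LINC00545, AP002856 and ESRG were under that limit on both days, so no fold is given although the test called them. They and AL355353 did not pass the count filter when only Day42 and Day21 were fitted, so their calls rest on Day0, where they were high. With genes at 0 set to their bound, the median log2 fold change of the 48 members above that limit on at least 1 of the days was -0.69, against -0.54 over all 70 as fitted and -0.54 over all genes tested.

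Between Day42 and Day0, 65 members could be tested; 17 passed as lower and 2 as higher, against 23.4% and 8.82% of all genes tested. Among protein-coding genes under the same condition, 30.7% passed as lower and 7.76% as higher. The Day42 libraries lay wholly below those of Day0 for 22 of the 65 and wholly above for 5, against 27.3% and 16.1% of all genes tested, and 27 had p under 0.05 without adjustment, as did 41.8% of all genes. The median log2 fold change was -1.33, also with genes at 0 set to their bound, against -0.57 over all genes. MIF-AS1 had 72.3, 53.8 and 64.9 FPKM on Day42, against 315, 215 and 183 FPKM on Day0 (log2 fold change -2.63 ± 0.42 SE, adjusted p = 0.00261, edgeR), and AC011603 fell by 1.88 on the log2 scale (adjusted p = 0.00425, edgeR). LINC01578 rose: it had 18.1, 28.6 and 32.5 FPKM on Day42, against 6.77, 6.45 and 5.33 FPKM on Day0, a log2 fold change of 1.38 ± 0.31 (SE, adjusted p = 0.0105, edgeR), and its libraries did not overlap. It kept the call in 15 of 16 alternatives. Without replicate 3 of Day42, 4 members passed as higher; leaving out any other library except replicate 3 of Day0 left 1. LHX5-AS1, at 0 on Day0, was at least 2.15-fold higher on Day42 (adjusted p = 0.0477, edgeR), on 2 of 3 libraries, and lost the call in 11 of 15 alternatives, with an adjusted p of up to 0.203, reached with limma. With only Day42 and Day0 fitted, 60 of the 65 members passed the count filter and LHX5-AS1 did not. Its call therefore rests on Day21, where it was high, and nothing is read from it. Of the 17 that fell, 12 were members of Day21 alone, and 9 of these were at 0 in all Day42 libraries. AC009005 (ENSG00000267751), antisense to BSG, which codes for the membrane protein basigin and averaged 53.8 FPKM on Day42 and 88.8 FPKM on Day0, had 6.31, 5.97 and 4.12 FPKM on Day0 and was at least 48.0-fold lower on Day42 (adjusted p = 0.000533, edgeR). AP003307 was at least 33.9-fold lower, and AC015982 and LINC01023 were at least 26.3-fold and 26.2-fold lower; AL359513 and AL133215 had bounds of 23.3-fold and 20.9-fold. Day42 libraries held counts for 10797 to 17101 genes, against 22198 to 24359 on Day0, and the part of that in these calls was not tested.

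Members of Day42 alone were mostly unnamed transcripts with clone-based symbols, which 53.7% of all 177 members also carry. AL008729 (ENSG00000272379, chr6:13290018-13290490) had 2.22, 8.72 and 1.18 FPKM on Day0, 0.740, 1.12 and 4.08 FPKM on Day21, and 74.9, 95.8 and 92.7 FPKM on Day42. Its Day42 libraries lay far above the rest. It has 98.7% of its exonic length inside PHACTR1 exons on the opposite strand, while PHACTR1, an actin and phosphatase regulator, averaged 0.113 FPKM on Day42. AC093673 (ENSG00000272619) had 2.74 to 6.02 FPKM on Day0, 1.84 to 3.22 FPKM on Day21, and 51.5, 58.7 and 130 FPKM on Day42. AC005332 had 94.6, 88.0 and 33.6 FPKM on Day42, against 0.410, 3.32 and 6.45 FPKM on Day21. AC108673, AL035071 and TRIM36-IT1 had means of 38.7, 46.4 and 25.9 FPKM on Day42, and replicate 3 was the highest in each of the 3. AC016876, which spans 3 snoRNAs, averaged 5.6 FPKM on Day0, 3.55 FPKM on Day21 and 29.1 FPKM on Day42, but 87.3% of its exonic length lies inside EIF4A1 on the same strand, so its level is uncertain; EIF4A1 averaged 127 FPKM on Day42 and 117 FPKM on Day21. The 2 FP236383 genes, which met 5 FPKM on Day21 as well and 1 of them also on Day0, averaged 96.8 and 139 FPKM on Day42 and are uncertain as near-identical copies. One had 61.8, 124 and 231 FPKM on Day42, against 46.9, 15.6 and 12.9 FPKM on Day21, with a log2 fold change of 1.91 ± 0.78 (SE, adjusted p = 0.114, edgeR). Members with a mean of at least 5 FPKM on a day spanned a median of 1.55-fold between the Day0 libraries, 1.54-fold between those of Day21 and 2.86-fold between those of Day42.

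Over the whole set, exon overlap with coding genes was common. Of 167 members, 64 (38.3%) overlapped coding exons, 58 of them on the opposite strand, against 32.1% of the other lncRNA genes, and 14 had at least 50% of their exonic length inside coding exons. Among members with no such overlap, 1 of 35 tested rose and none fell between Day21 and Day0, where 1.32% and 1.18% of all genes tested did. Between Day42 and Day21, 8 of 45 fell and none rose, against 19.7% and 6.52% of all genes. Between Day42 and Day0, 8 of 33 fell and none rose, against 23.4% and 8.82%. The members had a median exonic length of 913 bases, against 1021 bases for the others.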

How the data were processed

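Total RNA of 9 libraries, 3 on each of Day0, Day21 and Day42, was sequenced. The deposited table gives each gene a whole-number count and an FPKM value per library, per the file headers; cutadapt 1.9, FastQC and GRCh38 are named in the submitters' processing notes, and no source used here gives the aligner, counting tool or strand setting. Low counts pile up at multiples of 4, so a library with a count of 0 was allowed up to 12 counts; limits cover counting error only.

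The deposited counts were fitted with edgeR 4.0.16 (quasi-likelihood, TMM scaling, filterByExpr, R 4.3.3) over 20156 genes in all 9 libraries. A call needed a Benjamini-Hochberg adjusted p under 0.05 and a log2 fold change of at least 1 in size. The step was also run on simulated counts of Day42 against Day21. These had the same spread setting for every gene, unlike the real libraries, so nothing is read from that run about these data. Alternatives used DESeq2 1.42.0, limma 3.58.1 on log2(FPKM + 1) and log2(FPKM + 0.1), other scaling and filters, a replicate block and each library left out. The deposited FPKM were used for levels and for choosing members.

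The members and gene lists were chosen with earlier results of these data known. Members were named if they stood among the highest 8 of a day or of a day alone, the 6 largest calls of a comparison, up to 6 of a list of lncRNAs, the 3 on each side of the threshold, or hosts of microRNAs; of each protein list, up to 4 called were named. Some results are not reported here. The members of the shared-sequence pairs, SNHG15, SNHG21, SNHG29, THAP9-AS1, SPINT1-AS1 and TYMSOS were named after their values were seen. Sequences and overlaps came from GENCODE 29 and RefSeq (GRCh38.p14). The script language was Python 3.11.15 with pandas 2.3.3.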

Additional observations from a re-analysis of the deposited data

How the results depend on the processing

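Calls among tested members were most changeable between Day21 and Day0. There, 1 passed as higher; 0 did with no low-count filter, 0 with a replicate block, 13 with only the 2 days fitted, 6 with DESeq2, and 3 and 5 with limma at pseudocounts of 1 and 0.1. None passed as lower, against 4 with only the 2 days fitted and 2 with DESeq2. Between Day42 and Day21, 0 passed as higher, against 2 and 1 with limma at those pseudocounts, and 12 as lower, against 7 with the replicate block. Between Day42 and Day0, 2 passed as higher, against 0 with the block, 1 with only the 2 days fitted and 0 among members with no exon overlap, an alternative chosen after seeing the data, where 8 in place of 17 passed as lower because fewer were tested. Leaving out 1 library at a time gave 0 to 6 higher and 0 to 1 lower (Day21 against Day0), 0 to 1 and 8 to 17 (Day42 against Day21), and 1 to 4 and 13 to 23 (Day42 against Day0). The highest counts came without replicate 3 of Day42. Over all genes, the count higher between Day21 and Day0 was 266, against 2550 with only the 2 days fitted, 1389 with DESeq2 and 76 with the block. The rule kept 389 members at 2 FPKM, 78 at 10 FPKM and 269 with 2 of 3 libraries. Over 105 member results, 32 of them called, 1666 alternatives were run: 402 kept a call, 1120 left a result uncalled (3 of these have no adjusted p from DESeq2), 105 lost a call, 38 gained one and 1 reversed: LINC01173 between Day42 and Day0 had a log2 fold change of -6.02 without replicate 3 of Day42 and 4.37 with it, and leaving out each library in turn gave -6.02 to 6.198. Except for alternatives that change who is tested, the cause was not tested. Deviations of same-numbered libraries from the mean of their day had correlations of -0.225 to 0.0266, and those of differently numbered libraries -0.182 to 0.301. With only 3 libraries behind each mean, this cannot decide whether the numbers pair the libraries.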
